A study of Mus musculus with 12 samples.

Results

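The genes described here are 4 transmembrane mucins, Muc1, Muc4, Muc13 and Muc20, measured by RNA sequencing in colonic intestinal epithelial cells of mice. They were chosen by symbol, and each was found as 1 of the 46517 gene IDs counted. All 4 were also among the 12522 genes with enough counts to be tested. Muc1 had been singled out because it was lower in knockout than in wild-type cells under treatment. The genotype comparison under treatment is therefore described without a test for all 4 genes, and the other comparisons of Muc1 that use those libraries are described in the same way. The 12 samples form 4 groups of 3. Wild-type (WT) C57BL/6 mice were left untreated or received dextran sulfate sodium (DSS) for 48 h, an agent used to injure the colon lining. Mice of the same strain lacking both copies of Nfkb2 (Nfkb2-/-, here KO) were left untreated or received DSS for the same time. All mice were 7 to 9 weeks old. The knockout is not described as limited to a cell type, so other cells of these mice carry it too. Nfkb2 encodes an NF-kB precursor and subunit.

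Transmembrane mucins are large glycoproteins that span the apical membrane of epithelial cells. Their extracellular part carries dense O-linked sugar chains and forms the glycocalyx, the layer between the cell and the secreted mucus that Muc2 builds. MUC1 is cleaved into subunits that stay associated at the surface, and its short cytoplasmic tail binds kinases and beta-catenin. MUC4 holds domains like those of epidermal growth factor and can associate with the receptor ERBB2. MUC13 is among the main transmembrane mucins of the large intestine. MUC20 has been described as a partner of the MET receptor, with most work done in kidney.

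Muc1 (ENSMUSG00000042784.8) lies on the plus strand of chromosome 3, from 89229057 to 89233381 of GRCm38, and its exons cover 2346 bases in the GENCODE M21 annotation. The other members all lie on chromosome 16. Muc4 (ENSMUSG00000079620.12, from 32735886 to 32782391, plus strand, 11757 exon bases) and Muc20 (ENSMUSG00000035638.13, from 32777419 to 32797435, minus strand, 4027 exon bases) overlap at their 3′ ends, where their gene bodies share 4973 bp and their exons 627 bases. Those shared bases are 5.33% of the Muc4 exons and 15.6% of the Muc20 exons. The libraries do not mark strand, so reads from the shared bases cannot be assigned to one of the pair. Muc13 (ENSMUSG00000022824.11, from 33794037 to 33819934, plus strand, 3038 exon bases) starts 996.6 kb beyond Muc20 and shares 184 exon bases, 6.06% of its own, with the antisense gene Gm15657. Muc1 shared no exon base with another gene.

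The sequence upstream of Muc1 and Muc13 is shown because Muc1 had the largest DSS difference in WT, and Muc13 was the only tested member to pass, as described below. Both come from the RefSeq promoter table (GRCm38.p6), which held all 4 members, and end at the base before the start site. For Muc13 the table lists 2 start sites, and the window of the first is shown. The Muc1 window is chr3:89228806-89229055 and the Muc13 window is chr16:33793787-33794036, both on the plus strand. Capitals mark matches to the 4 motifs searched on both strands, which are GGGNNNNNCC for NF-kB, TTCNNNGAA for STAT factors, TATAAA for the TATA box and GGGCGG for the GC box. The last pair of motifs was added after the Muc1 window had been seen.
Muc1: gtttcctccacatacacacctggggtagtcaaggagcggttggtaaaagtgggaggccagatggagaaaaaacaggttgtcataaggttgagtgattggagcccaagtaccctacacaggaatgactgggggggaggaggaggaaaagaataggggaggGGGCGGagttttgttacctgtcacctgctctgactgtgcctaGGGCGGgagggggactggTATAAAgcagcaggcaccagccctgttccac
Muc13: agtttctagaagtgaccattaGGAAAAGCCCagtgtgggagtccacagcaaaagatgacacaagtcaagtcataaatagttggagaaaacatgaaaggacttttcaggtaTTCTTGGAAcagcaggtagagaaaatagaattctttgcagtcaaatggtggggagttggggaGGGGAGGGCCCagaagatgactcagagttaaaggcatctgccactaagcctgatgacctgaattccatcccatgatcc
The Muc1 window held TATAAA from -31 to -26, counted from the start site, and GGGCGG from -91 to -86 and from -49 to -44. It held no match to the NF-kB or STAT letters. Each window is 250 bases long, and sequence further upstream was not searched. The Muc13 window shown held NF-kB letters from -229 to -220 and in overlapping matches from -78 to -68, and STAT letters from -140 to -132. The Muc4 window held TATAAA from -36 to -31, and neither the Muc20 window nor that of the second Muc13 start site held any of the 4 motifs. Of the 32851 promoter windows of the same length in the table, 45.8% held the NF-kB letters, 7.02% the STAT letters, 12.4% TATAAA and 32.7% GGGCGG. A match is a match of letters and shows no binding.

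Total counts ranged from 5595909 to 8117740 per sample. Nfkb2 averaged 36.9 CPM (counts scaled to library size by the TMM method) in untreated WT and 42.5 in DSS-treated WT, against 14.4 and 17.5 in the KO groups, with no overlap between genotypes (log2 fold change -1.36, edgeR adjusted p 0.00123 untreated, and -1.28, adjusted p 0.00224 under DSS). Library numbers in the labels are all lower for WT than for KO, so in every comparison of genotypes below, genotype and the order of the libraries cannot be told apart. By flow cytometry, the preparations were typically about 90% CD45.2-EpCAM+ cells according to the labels. The 7 epithelial markers, Epcam and Krt8 among them, summed to between 21200 and 32100 CPM in every sample. The 12 leukocyte markers summed to 17.6 to 36.7 CPM in untreated WT, 59.5 to 61.0 in DSS-treated WT, 58.6 to 82.4 in untreated KO and 101 to 147 in DSS-treated KO. The 7 stromal markers reached at most 19.8 CPM in any sample.

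Compared per length of exon (RPKM, CPM per kilobase), Muc13 was the main member in every group. Its mean was 1024 RPKM in untreated WT, 1429 in DSS-treated WT, 1156 in untreated KO and 1271 in DSS-treated KO. It made up 98.1%, 96.4%, 98.8% and 98.8% of the summed RPKM of the 4 genes in those groups. Muc4 averaged 13.8, 10.7, 10.3 and 9.04 RPKM in the same order, and Muc20 stayed at or below 0.37 on average. Muc1 averaged 4.89, 42.5, 3.87 and 5.90 RPKM. In untreated WT, Muc4 was therefore 1.96 to 4.63 times as high as Muc1 per length in single samples. In DSS-treated WT this ratio was 0.206 to 0.307, so Muc1 was above Muc4 in all 3 samples of that group and below it in the 9 others. The share of Muc1 in the summed RPKM was 0.466% ± 0.070 (SD, n = 3) in untreated WT, 2.89% ± 0.454 in DSS-treated WT, 0.329% ± 0.044 in untreated KO and 0.459% ± 0.073 in DSS-treated KO. The mean ratio of Muc13 to Muc1 per length was 213, 34.0, 304 and 219 in that order.

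**Figure D1:**
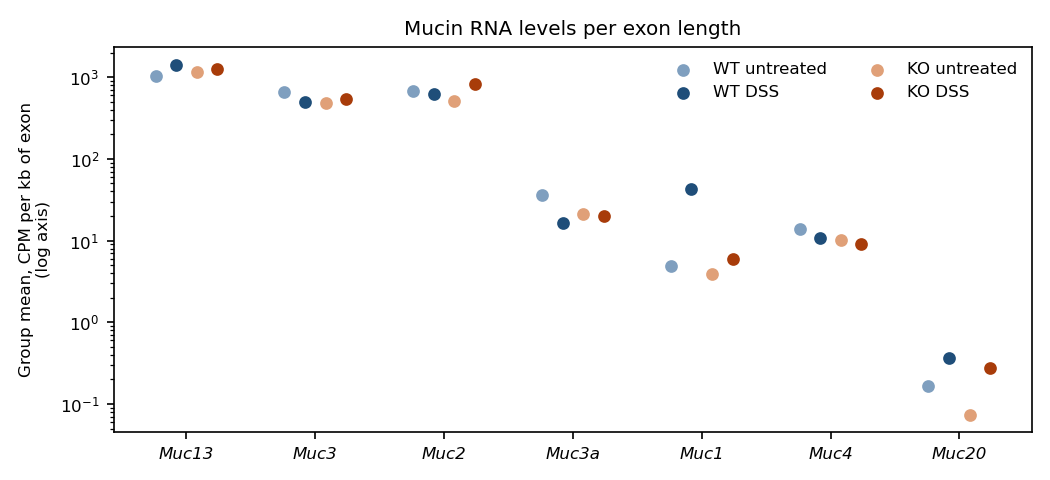
Group means per length of exon (RPKM) on a log axis for the 4 members and for Muc3, Muc3a and Muc2. Muc13 has the highest mean of these genes in each group, from 1024 to 1429 RPKM, and Muc1 is above Muc4 only in DSS-treated WT.

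Muc1 was high in 1 of the 4 groups. In CPM, the 3 untreated WT samples had 14.3, 11.8 and 8.34 (98, 72 and 54 counts), and the 3 WT samples under DSS had 87.0, 109 and 104 (573, 816 and 635 counts). The untreated KO samples had 8.89, 10.9 and 7.49 CPM (66, 89 and 63 counts), and those of DSS-treated KO had 12.7, 16.2 and 12.6 (72, 109 and 91 counts). Every WT sample under DSS lay above all 9 others, and the lowest of them was more than 5 times the highest of the rest. The group means were 11.5 ± 2.98, 99.8 ± 11.4, 9.08 ± 1.70 and 13.8 ± 2.02 CPM (SD, n = 3) for untreated WT, DSS-treated WT, untreated KO and DSS-treated KO. In order of level, untreated KO was lowest, followed by untreated WT and DSS-treated KO, each overlapping the next, and DSS-treated WT was 7.22 times DSS-treated KO.

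As fitted, DSS-treated WT differed from untreated WT by 3.12 (SE 0.22) on the log2 scale, or 8.67-fold, and DSS-treated KO from untreated KO by 0.61 (SE 0.22), or 1.52-fold. In both genotypes the DSS samples lay above the untreated ones without overlap. Groups without overlap in either direction were found for 20.6% of all genes tested in WT and for 24.3% in KO. With the mean log2 CPM of the goblet markers as a covariate, the value in KO was 0.20. Goblet markers summed to 13800 to 15200 CPM in untreated KO and 26700 to 30700 in DSS-treated KO. Clca1 (6372 to 15530 CPM on average), Fcgbp (3330 to 6406) and Muc2 make up most of this sum and passed as higher. In this comparison 3.92% of all genes passed in either direction. The other 4 of the 7 markers did not pass. Spdef (44.6 and 43.8 CPM) and Zg16 (338 and 267) did not rise, while Tff3 (37.2 and 46.2) and Agr2 (698 and 827) were higher on average. The median log2 change of the 7 goblet markers was 0.31, against 0.015 over all genes tested. The goblet covariate is confounded with the groups, so it and the treatment cannot be told apart. The part of the goblet markers in the Muc1 value was not tested. The KO minus WT difference under DSS was -2.85 (SE 0.22), or 7.20-fold lower in KO, without overlap. In that comparison 22.3% of all genes had groups without overlap in either direction, and 3.11% passed the edgeR test. The DSS change in KO minus that in WT was -2.51 (SE 0.31). These values describe the comparisons for which Muc1 was chosen or that share their libraries, and are no test of it. In untreated cells, whose libraries took no part in that choice, KO and WT overlapped and the difference of -0.34 (SE 0.22, 95% interval -0.82 to 0.14) did not pass (edgeR adjusted p 0.535). It ran from -0.52 to -0.15 as single samples were left out. An untreated difference larger than 0.82 on the log2 scale in the direction of lower KO lies outside that interval. In bulk samples, fewer cells of a type and less RNA per cell cannot be told apart, here and for every gene below.

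**Figure D2:**
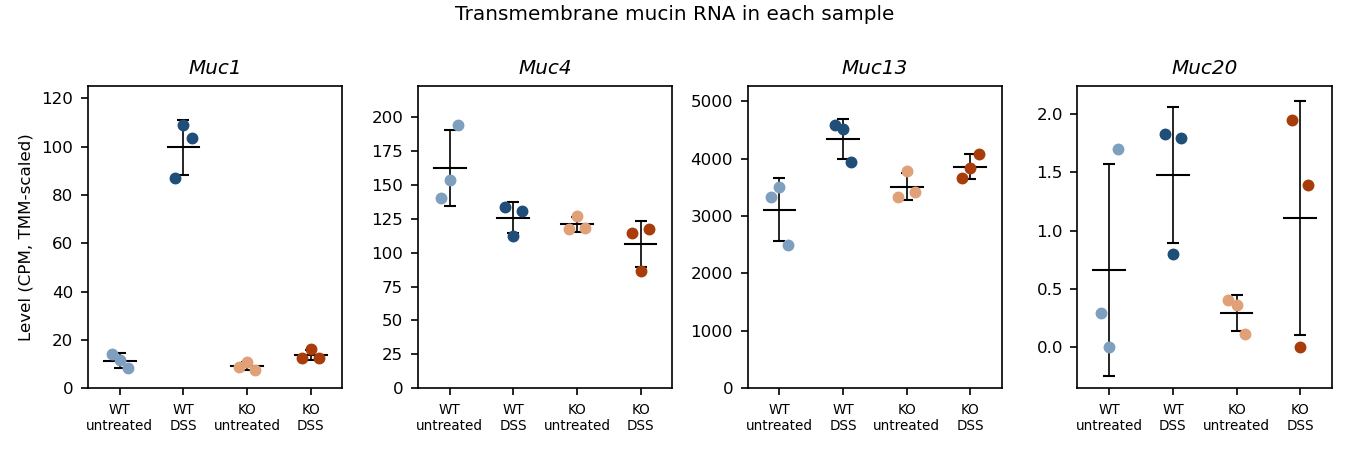
CPM of each member in the 12 samples, with 1 panel per gene, points for samples, horizontal lines for the group mean and whiskers for the SD (n = 3). The 3 WT samples under DSS stand at 87.0 to 109 CPM for Muc1, above all others, while the groups overlap more for the other genes.

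Muc13 had 3325, 3515 and 2491 CPM in untreated WT and 4579, 4515 and 3935 CPM in DSS-treated WT. It had 3341, 3783 and 3414 CPM in untreated KO and 3660, 3844 and 4083 CPM in DSS-treated KO. The WT samples did not overlap between treatments, and the KO samples did. Raw counts were between 16120 and 33857 per sample, so counting error is small for this gene. Group means were 3110 ± 545, 4343 ± 355, 3512 ± 237 and 3862 ± 212 CPM (SD, n = 3), and each group overlapped its neighbour in the order of levels, which ran from untreated WT over untreated KO and DSS-treated KO to DSS-treated WT. Muc13 rose under DSS in WT by 0.48 on the log2 scale (SE 0.11, 95% interval 0.24 to 0.72, edgeR adjusted p 0.0184), or 1.40-fold, and was higher in 3 of 3 samples.

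This call was not stable. It was lost without WT DSS replicate 1 (adjusted p 0.0897), without WT DSS replicate 2 (0.0793), and with a fit of these 2 groups alone (0.106). With the mean log2 CPM of the leukocyte markers as a covariate, the difference was 0.05 (adjusted p 0.967). Those markers are higher under DSS, so the covariate and the treatment cannot be told apart. In KO the DSS difference of Muc13 was 0.14 (SE 0.11, 95% interval -0.10 to 0.38) and did not pass (edgeR adjusted p 0.635), and it was -0.14 with either the leukocyte or the goblet covariate. The DSS change in KO minus that in WT was -0.34 (SE 0.16, 95% interval -0.69 to -0.0026, edgeR adjusted p 0.466), so the changes were not shown to differ between genotypes. With the goblet covariate this value was -0.68 and passed (edgeR adjusted p 0.00624). The goblet markers themselves differ between the groups, so that covariate and the difference of changes cannot be told apart. The pass is therefore not read as a difference between genotypes. Untreated KO and WT differed by 0.18 (SE 0.11, 95% interval -0.07 to 0.42, adjusted p 0.526), by 0.039 without untreated WT replicate 3, by 0.27 without untreated WT replicate 2, and by -0.15 with the leukocyte covariate. Without untreated WT replicate 3 the difference of changes was -0.21. Under DSS the KO minus WT value was -0.17 (SE 0.11), with 1 of 3 KO samples inside the WT range.

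Muc4 was highest in untreated WT, with 140, 153 and 194 CPM (963, 935 and 1254 counts). It had 134, 112 and 130 CPM in DSS-treated WT (881, 844 and 800 counts), 117, 127 and 118 in untreated KO (871, 1040 and 995 counts), and 114, 86.6 and 118 in DSS-treated KO (647, 584 and 850 counts). All 3 untreated WT samples lay above the 9 others, with replicate 1 at 140 CPM and the highest of the others at 134. The other groups overlapped. Group means were 162 ± 27.8, 126 ± 11.4, 121 ± 5.33 and 106 ± 17.1 CPM (SD, n = 3) in the order used above. DSS in WT gave a log2 difference of -0.37 (SE 0.14, 95% interval -0.68 to -0.06, edgeR adjusted p 0.175), and KO minus WT in untreated cells gave -0.43 (SE 0.14, 95% interval -0.73 to -0.12, adjusted p 0.135). Neither passed, and both rest on the same untreated WT samples. The intervals, which are not adjusted for the number of genes, exclude 0. Without untreated WT replicate 3, the values were -0.23 and -0.28. In KO the DSS difference was -0.19 (SE 0.14, 95% interval -0.49 to 0.12, adjusted p 0.607; -0.064 without DSS-treated KO replicate 2), and the difference of changes was 0.19 (SE 0.20, 95% interval -0.25 to 0.62, adjusted p 0.865). Under DSS the KO minus WT value was -0.24 (SE 0.14), and -0.12 without DSS-treated KO replicate 2. The difference of changes ran from 0.039 to 0.31 over the fits that each left out 1 sample.

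Muc20 was at the limit of detection. It had 2, 0 and 11 counts in untreated WT, 12, 6 and 11 in DSS-treated WT, 3, 3 and 1 in untreated KO, and 11, 0 and 10 in DSS-treated KO. In CPM these were 0.291, 0 and 1.70, then 1.82, 0.800 and 1.79, then 0.404, 0.366 and 0.119, then 1.94, 0 and 1.39. A count of 0 allows up to 3 counts, which is 0.356 to 0.530 CPM in these libraries, and 6 of the 12 samples were at or under 3 counts. All groups next to each other in level overlapped. Log2 differences were 1.11 (SE 1.09, edgeR adjusted p 0.707) for DSS in WT, 1.84 (SE 1.19, adjusted p 0.511) for DSS in KO and -1.14 (SE 1.23, adjusted p 0.758) between untreated genotypes, and the difference of changes was 0.73 (SE 1.58, adjusted p 0.949). Under DSS the KO minus WT value was -0.41 (SE 1.04), and it ran from -1.04 to 0.17 as single samples were left out. The 95% intervals run over both signs in all 4 tested comparisons, so no difference was detectable at this depth. The untreated genotype value changed sign without untreated WT replicate 3, to 0.88, as did the difference of changes, to -1.29. Of the 50-base words of Muc20, 12.1% also occur in the overlapping Muc4. Reads from those stretches cannot be assigned to 1 gene of the pair, and whether any were counted for Muc20 is not known.

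Counted over the members that could be tested, 1 of 3 (Muc13) passed for DSS in WT, in the direction of an increase, where 6.30% of all 12522 genes passed in either direction and 2.80% as higher. None of 3 passed for DSS in KO, where 3.92% of all genes did, and none of 4 between untreated genotypes, where 3.48% did. None of 3 passed for the difference of changes, where 1.70% did. At an unadjusted p under 0.05 the counts for these last 3 comparisons were 0, 1 (Muc4) and 1 (Muc13), and DESeq2 called 0 in each. Groups without overlap were found for 3 of 4 members for DSS in WT (Muc1, Muc4 and Muc13), against 20.6% of all genes. They were found for 1 of 4 for DSS in KO (Muc1, against 24.3%), between untreated genotypes (Muc4, against 19.3%) and between genotypes under DSS (Muc1, against 22.3%). Muc1 was chosen for the last of these comparisons, which shares libraries with both DSS comparisons. Its place in these 3 counts is therefore a description and no support. The median log2 change of the tested members was 0.48 for DSS in WT, 0.14 for DSS in KO, -0.38 between untreated genotypes and 0.19 for the difference of changes, against 0.0063, 0.015, -0.0015 and -0.0066 over all genes tested. Where 3 members were tested, the median is the value of a single gene, Muc13 for both DSS comparisons and Muc4 for the difference of changes. Muc20, at the limit of detection, is among the members in each, so these medians show no shift of the members as a set.

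**Figure D3:**
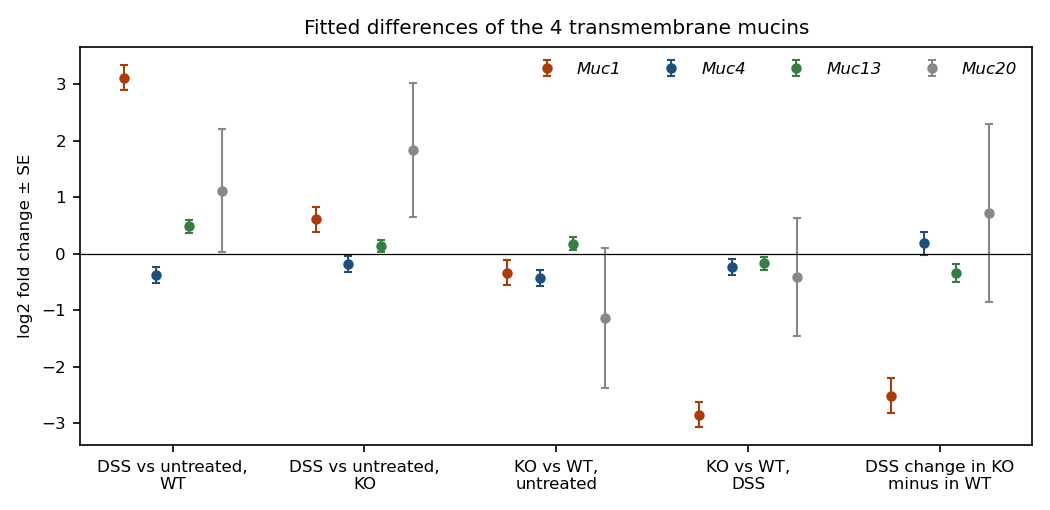
Fitted log2 fold changes of the 4 members in the 5 comparisons, with whiskers of 1 SE. Muc1 stands at 3.12 for DSS in WT and -2.85 for KO against WT in DSS-treated mice, and the Muc20 whiskers are the widest in every comparison.

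Over the 12 samples, log2 CPM of Muc1 and Muc13 had a Pearson r of 0.70, Muc4 and Muc13 of -0.60, and Muc1 and Muc4 of -0.13. These points share the 4 groups, so the values describe the group pattern. The genes whose pattern was most like that of Muc1, out of 8860 whose mean log2 CPM was 3 or more, were Clca4b (r = 0.98), Lrg1 (0.97), Nfkbiz (0.95), Duoxa2 (0.95) and Pygb (0.95). Clca4b belongs to a family of chloride channel regulators and averaged 97.3 CPM in untreated WT, 637 in DSS-treated WT, 83.7 in untreated KO and 137 in DSS-treated KO. Lrg1, a secreted leucine-rich glycoprotein induced in inflammation, averaged 4.57, 319, 1.42 and 10.3 CPM in the same order. Nfkbiz, an atypical IkB protein, averaged 157, 378, 123 and 167 CPM, and Duoxa2, the maturation factor of an epithelial hydrogen peroxide producing oxidase, 19.0, 66.7, 12.2 and 24.9. Pygb, a glycogen phosphorylase, averaged 351, 483, 292 and 349 CPM. Each of these 5 had its highest mean in DSS-treated WT and its lowest in untreated KO, as Muc1 did.

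**Figure D4:**
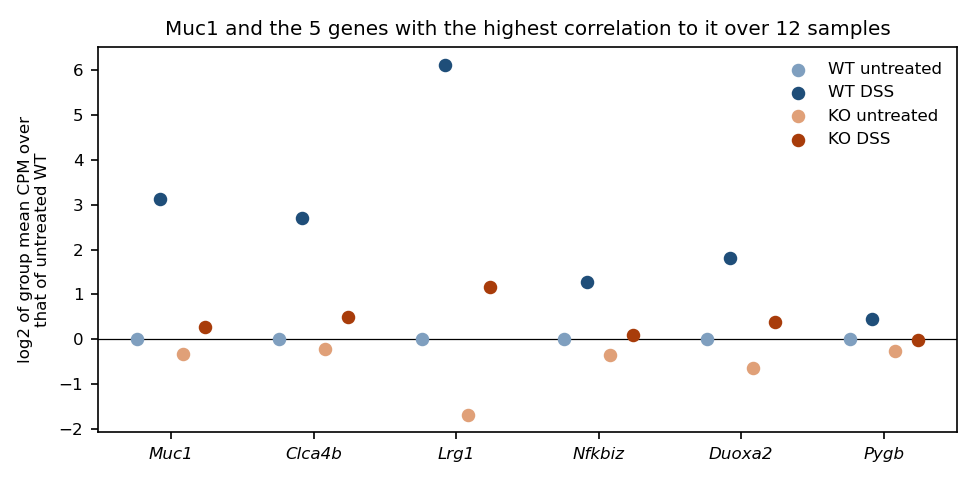
Group means of Muc1 and of the 5 genes most correlated with it, as the log2 of the ratio to untreated WT. In all 6 genes the WT DSS mean is the highest point and the untreated KO mean the lowest.

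The pattern of Muc13 was most like those of Ly6g6e (r = 0.97), Ankrd22 (0.95), Bag3 (0.92), Il18 (0.92) and Lbp (0.90). Il18, a cytokine made by epithelial cells, averaged 84.3 CPM in untreated WT, 153 in DSS-treated WT, 84.1 in untreated KO and 126 in DSS-treated KO. Lbp, the lipopolysaccharide binding protein, averaged 4.64, 68.9, 8.69 and 24.7 CPM. For Muc4 the 5 genes were Lrrc1 (r = 0.90), Zfp180 (0.89), Lnx2 (0.89), Slc35d2 (0.89) and Rnf44 (0.88), all of them highest in untreated WT, such as Slc35d2, a nucleotide sugar transporter, with 19.5, 11.9, 9.85 and 8.11 CPM. For Muc20 the 5 were Golga3, Emsy, Hnrnph1, Manba and Cgnl1 (r = 0.92 to 0.85), and these rest on 0 to 12 counts per sample of Muc20.

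Genes beside the members were compared within 50 kb. Of 14 counted neighbours of Muc1, 9 were tested. Trim46, named after its values were seen, lies on the opposite strand 796 bp beyond the 3′ end of Muc1. It averaged 13.5 ± 2.68 CPM (SD, n = 3) in untreated WT, 36.7 ± 1.47 in DSS-treated WT, 19.6 ± 1.51 in untreated KO and 23.3 ± 4.52 in DSS-treated KO. Trim46 rose under DSS in WT by 1.44 on the log2 scale (SE 0.20, edgeR adjusted p 0.000363), and its DSS change was lower in KO by 1.19 (SE 0.28, adjusted p 0.0451). No other gene of the 9 passed in these comparisons, where 6.30% and 1.70% of all genes did. None of the 9 passed in the other 3 comparisons, where 0, 1 and 2 had an unadjusted p under 0.05 and DESeq2 called 0, 0 and 2 for DSS in KO, untreated genotypes and genotypes under DSS. Since strand is not recorded, reads running past the end of Muc1 cannot be told apart from those of Trim46 where they meet, and their part in this value was not tested. Beside Muc13, all 3 counted neighbours were tested. The antisense gene Gm15657, which overlaps the 5′ end of Muc13, averaged 14.8, 38.7, 16.4 and 26.4 CPM and rose under DSS in WT by 1.39 (SE 0.25, edgeR adjusted p 0.00263). Heg1, a membrane protein gene 22461 bp away, rose there by 1.02 (edgeR adjusted p 0.0424). For DSS in WT, 2 of these 3 neighbours thus passed, against 6.30% of all genes. Neither of the 2 tested neighbours of the Muc4 and Muc20 pair passed in any comparison, each of the pair being counted as a neighbour of the other, and Muc4 was the only gene there with an unadjusted p under 0.05, with 0 called by DESeq2.

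**Figure D5:**
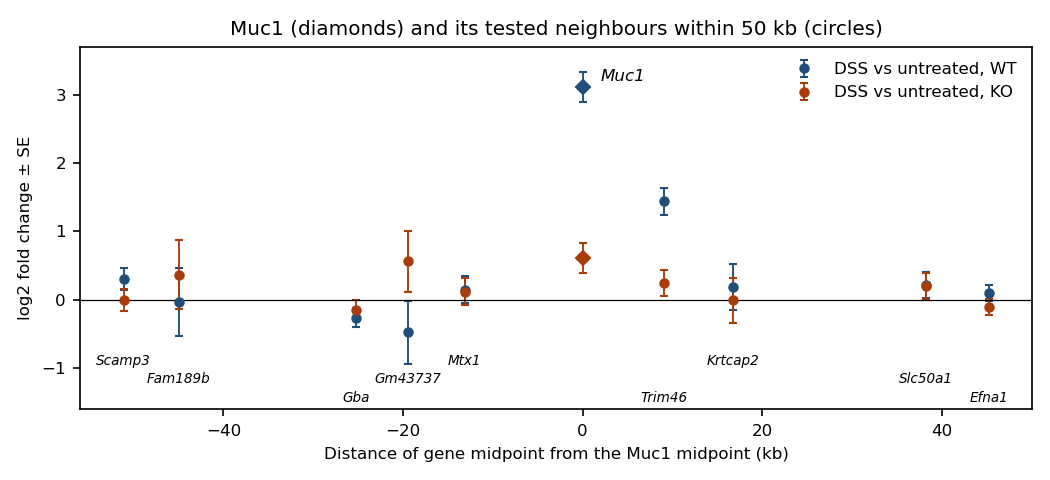
Fitted log2 fold change under DSS in WT and in KO, with whiskers of 1 SE, of Muc1 (diamonds) and its 9 tested neighbours (circles) against the distance in kb between gene midpoints. Muc1 at 3.12 and Trim46 at 1.44, both in WT, are the highest points, and no other neighbour passed.

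Of 12 other transmembrane mucin and sialomucin genes listed, 4 were tested, and 4 symbols, Muc12, Muc16, Muc17 and Muc21, matched no row. Muc3, a large transmembrane mucin of the brush border, averaged 1290 CPM in untreated WT, 965 in DSS-treated WT, 950 in untreated KO and 1038 in DSS-treated KO. It fell under DSS in WT by 0.42 on the log2 scale (edgeR adjusted p 0.0120) and was lower in untreated KO by 0.44 (adjusted p 0.0150). Both comparisons share the untreated WT samples. Muc3a had 68.8, 30.9, 40.1 and 37.8 CPM, with a log2 fold change of -1.15 under DSS in WT (adjusted p 0.00174) and -0.78 in untreated KO (adjusted p 0.0380). Cd164, a sialomucin, had means of 527 to 638 CPM and Parm1, a mucin-like membrane protein, of 256 to 297 CPM, and neither passed in any comparison. None of the 4 passed for DSS in KO or for genotypes under DSS, where 1 and 0 had an unadjusted p under 0.05 and DESeq2 called 0 in each. Both Muc3 genes thus had the opposite sign to Muc13 for DSS in WT.

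Among 7 secreted mucins, Muc2, the gel-forming mucin of the colon, was the only one tested. It averaged 4842 CPM in untreated WT, 4385 in DSS-treated WT, 3618 in untreated KO and 5864 in DSS-treated KO. Muc2 rose under DSS in KO by 0.70 (SE 0.10, edgeR adjusted p 0.000923), while the WT difference was -0.14 (adjusted p 0.522), and the difference of changes passed at 0.84 (SE 0.14, adjusted p 0.00456). It was lower in KO by 0.42 without treatment (adjusted p 0.0281) and higher in KO by 0.42 under DSS (adjusted p 0.0313). Muc2 and Muc1 thus had opposite signs between genotypes under DSS. The 7 goblet cell markers, Muc2 among them, summed to 18800 to 29900 CPM in untreated WT, 15200 to 17500 in DSS-treated WT, 13800 to 15200 in untreated KO and 26700 to 30700 in DSS-treated KO. Most of the lower sum in DSS-treated WT and untreated KO is Clca1, which averaged 15510 CPM in untreated WT, 7474 in DSS-treated WT and 6372 in untreated KO. The medians of the 7 log2 changes were 0.090 for DSS in WT and 0.16 between untreated genotypes, so the sum and the median differ in sign. With the goblet marker covariate, which is a mean of log2 values and is not set by the largest marker, the Muc1 value between genotypes under DSS was -3.31 and that of the difference of changes was -3.00. This covariate is confounded with the groups.

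Of 18 genes for partners and receptors of transmembrane mucins, 17 were tested. For DSS in WT, 1 rose and 1 fell, with a list median of 0.21 against 0.0063 over all genes, of which 6.30% passed. Icam1, the adhesion molecule that the MUC1 surface part can bind, rose from 1.88 to 14.5 CPM, by 2.95 on the log2 scale (SE 0.34, edgeR adjusted p 5.78e-05), and Lgals3, a galectin that binds mucin sugars, fell from 1947 to 1140 CPM (-0.77, adjusted p 0.0190). In untreated KO, Icam1 was 11.9 CPM (2.67, edgeR adjusted p 0.000348), the only gene of the list to pass there, and its DSS change was lower in KO (-2.02, adjusted p 0.0273). Its mean in DSS-treated KO was 22.7 CPM, the highest of the 4 groups. For DSS in KO, where 3.92% of all genes passed, the receptor gene Erbb3 rose (0.55, edgeR adjusted p 0.0311) and the chaperone gene Hsp90aa1 fell (-0.45, adjusted p 0.0493). Hsp90aa1 was also the only list gene to pass between genotypes under DSS (-0.59, adjusted p 0.0143). Erbb2 had 207 and 303 CPM in untreated and DSS-treated WT and 214 and 302 CPM in the KO groups, and did not pass (adjusted p 0.0861 and 0.156).

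The 14 listed genes for cleavage and shedding were all tested. None passed for DSS in WT, between genotypes or for the difference of changes. In those 4 comparisons, in the order DSS in WT, untreated genotypes, genotypes under DSS and difference of changes, 1, 2, 3 and 2 genes had an unadjusted p under 0.05 and DESeq2 called 0, 0, 2 and 1. In DSS-treated KO, Psen2, a catalytic subunit gene of gamma-secretase, rose by 1.00 (edgeR adjusted p 0.0384) and the protease gene Bace2 by 0.67 (adjusted p 0.0333). For DSS in KO, 3.92% of all genes passed. Adam17, a sheddase gene of the list, had 62.6 and 65.7 CPM in the WT groups and 65.9 and 63.2 CPM in the KO groups.

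Of 15 genes for apical anchoring and the glycocalyx, 14 were tested. Under DSS in WT, 6 fell and 0 rose, with a median of -0.39 against 0.0063 over all genes, of which 6.30% passed in either direction. Among them were Ceacam1, a glycosylated adhesion molecule (7537 to 3807 CPM, log2 fold change -0.99), the microvillar protocadherin gene Cdhr2 (805 to 432 CPM, -0.90) and the scaffold gene Slc9a3r1 (237 to 137 CPM, -0.79). In KO, 2 fell under DSS, Slc9a3r1 (-0.81, edgeR adjusted p 0.00429) and Ceacam1 (-0.38, adjusted p 0.0164), where 3.92% of all genes passed. In untreated KO, Ceacam1 (-0.70), Cdhr2 (-0.51) and Ceacam20 (-0.48) were lower, and under DSS the actin bundler gene Vil1 was lower in KO (-0.55, adjusted p 0.0386). The DSS change of Ceacam1 differed between genotypes (0.61, adjusted p 0.0114). The 7 colonocyte markers, which share Ceacam20 with this list, all passed as lower under DSS in WT and 6 of 7 in KO. Their sum was 11000 to 12700 CPM in untreated WT, 2340 to 2800 in DSS-treated WT, 5830 to 6310 in untreated KO and 2700 to 3330 in DSS-treated KO, and its part in these values was not tested. Of the 7, 1 was higher and 3 were lower in untreated KO, where 3.48% of all genes passed in either direction. Under DSS, 3 were higher in KO, where 3.11% of all genes passed. Car1 (7068 CPM in untreated WT and 2552 in untreated KO) and Cyp2c55 (2244 and 580) carry the untreated difference of the sums, while Car4 was the marker that was higher (555 and 889).

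All 20 genes of the list for cytokine signalling upstream of mucin genes were tested. Under DSS in WT, 3 rose and 1 fell, with a median of 0.13 against 0.0063 over all genes, of which 6.30% passed. Socs3, a feedback inhibitor of STAT3 signalling, rose from 18.3 to 83.4 CPM (log2 fold change 2.19, edgeR adjusted p 1.24e-05), and Osmr, the oncostatin M receptor gene, from 2.12 to 13.7 CPM (2.69, adjusted p 0.000364). The intestinal transcription factor gene Cdx2 fell from 251 to 87.8 CPM (-1.52, adjusted p 9.21e-06). In KO, 4 rose and 1 fell, where 3.92% of all genes passed. Socs3 went from 18.6 to 48.1 CPM (1.37, edgeR adjusted p 0.00179) and Cdx2 from 177 to 105 CPM (-0.75, adjusted p 0.00727). Under DSS, Socs3 (-0.79, adjusted p 0.0483) and the hypoxia factor gene Hif1a (-0.58, adjusted p 0.0400) were lower in KO. None passed between untreated genotypes or for the difference of changes, where 4 and 5 had an unadjusted p under 0.05 and DESeq2 called 3 and 2.

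The remaining marker lists were low or moved in other ways. The 6 tuft cell markers summed to 9.27 to 42.6 CPM and the 5 enteroendocrine markers to 47.0 to 120 CPM over all samples. The 6 stem and cycling crypt cell markers summed to 330 to 523 CPM in untreated WT, 271 to 306 in DSS-treated WT, 447 to 496 in untreated KO and 274 to 295 in DSS-treated KO. The 6 plasma cell markers summed to 323 to 376, 473 to 502, 343 to 369 and 390 to 429 CPM in the same order, with Tnfrsf17 at 0 in every group. Xbp1, which epithelial cells also express, made up most of that sum, with means of 304, 416, 340 and 387 CPM. The immunoglobulin gene Igha averaged 23.0, 45.5, 6.05 and 8.38 CPM and Jchain 5.18, 10.2, 2.59 and 3.80 CPM. Igha was lower in KO under DSS (log2 fold change -2.42, edgeR adjusted p 0.0146), and no plasma cell marker passed between untreated genotypes, where 2 had an unadjusted p under 0.05 and DESeq2 called 2.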

How the data were processed

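RNA was measured in 12 samples of colonic epithelial cells detached with EDTA, and libraries were made by SMART-seq2, which records neither strand nor molecular identifiers, per the labels' protocols. Read counts per gene, as whole numbers, were deposited for each sample. Reads were aligned with STAR 2.5.2b and counted with featureCounts 1.5.0 on GRCm38/mm10, per the submitters' processing notes. The annotation and strand setting are not given in the sources used here. Of 46517 IDs, 46005 matched GENCODE M21 without regard to version (27555 with it), and 512 did not.

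The filterByExpr rule kept 12522 genes with 99.8% of counts. edgeR 4.0.16 (R 4.3.3) with TMM scaling was fitted with 1 coefficient for each group of the 12 samples, followed by the two-sided quasi-likelihood F test with Benjamini-Hochberg adjustment over all genes and a threshold of 0.05. The SE is the absolute log2 fold change over the square root of F. CPM uses the total over tested genes scaled by TMM, log2 CPM for correlations a prior count of 2, and RPKM the GENCODE exon length. Floors of 3 counts reflect counting error alone, because PCR duplicates were not removed by identifiers.

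The members and the lists were chosen with earlier results of these data known. Named genes are the 4 members, the 5 genes most correlated with each, all tested genes of the 2 mucin lists, up to 3 genes past the threshold per other list and comparison, neighbours that overlap or pass with a member, and Nfkb2. Some results that this rule selects are not reported here. Erbb2, Adam17 and Trim46 were added after their values were seen. Outside the rule, cell type markers such as Epcam, Krt8, Spdef, Zg16, Tff3, Agr2 and Jchain were named to describe the marker lists, whether or not they passed. The design text calls the samples biological replicates and does not say whether each is 1 mouse, so p-values measure the spread between these samples. Replicate pairs differed beyond sampling noise (chi-square per degree of freedom 6.51 to 27.0). Numbers 1 to 3 come from the titles. Deviations of same-numbered samples correlated over 0.1 for all 3 pairs of DSS in KO (r = 0.204, 0.106 and 0.127). For DSS in WT the values were 0.0138, 0.12 and 0.128. In both genotypes each sample correlated best with its own number, so the numbers may pair untreated and DSS samples. The tests reported above use no pairing, and a replicate block was run only as an alternative. Alternatives were DESeq2 1.42.0 and its size factors, other filters, the 2 groups alone, the replicate block, leukocyte and goblet marker covariates, and each sample left out.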

Additional observations from a re-analysis of the deposited data

Results flagged for a closer look

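For 2 mucins outside the 4 members the DSS change differed between genotypes by the interaction term of edgeR. Muc2 had a difference of changes of 0.84 on the log2 scale (SE 0.14, adjusted p 0.00456), with a rise of 0.70 in KO and a difference of -0.14 in WT. Muc3 had a difference of changes of 0.55 (SE 0.13, adjusted p 0.0483, close to the threshold), with -0.42 in WT and 0.13 in KO.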

How the results depend on the processing

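Of 388 alternative values of the 20 member results, 370 were counted as unchanged. For tested results this means that both direction and side of the threshold were kept. Where no test was made, it means a shift smaller than the pooled SD of log2 CPM within the groups. For Muc20 those SDs were 0.546 in DSS-treated WT and 1.60 in DSS-treated KO, so even a change of sign could count as unchanged there. With the goblet covariate the values were 0.20 (Muc1, DSS in KO), -3.31 (Muc1, genotypes under DSS), -3.00 (Muc1, difference of changes), -0.0043 (Muc4, genotypes under DSS), 0.025 (Muc4, DSS in KO), -0.48 (Muc13, genotypes under DSS), -0.68 (Muc13, difference of changes, now passing), -0.14 (Muc13, DSS in KO) and 1.67 (Muc20, genotypes under DSS, against -0.41), and 733 genes passed between untreated genotypes. With the leukocyte covariate Muc13 had 0.050 (DSS in WT, no longer passing), -0.35 (genotypes under DSS), -0.14 (DSS in KO) and -0.15 (untreated genotypes), and 141, 92, 80 and 204 genes passed for DSS in WT, DSS in KO, untreated genotypes and genotypes under DSS, against 789, 491, 436 and 390. Both covariates are confounded with the groups. With the 2 groups alone Muc13 under DSS in WT was 0.48 (not passing), and 467 (DSS in WT) and 195 (untreated genotypes) genes passed, with fewer samples in the fit. By DESeq2, 800, 790, 662 and 368 genes passed for DSS in KO, untreated genotypes, genotypes under DSS and the difference of changes, and without a filter 776, 703, 642 and 356 did. The cause of these shifts was not tested. Leaving out 1 sample at a time gave Muc13 under DSS in WT 0.34 to 0.58, Muc20 between untreated genotypes -1.70 to 0.88 and for the difference of changes -1.29 to 1.30, and gene counts of 483 to 958, 235 to 710, 212 to 725, 160 to 566 and 152 to 350 in the 5 comparisons. Same-numbered samples correlated at 0.014 to 0.128 for DSS in WT, where each correlated best with its own number, as in KO. In both genotypes, same-numbered untreated and DSS samples also have consecutive library numbers, so they may be paired in WT too. The correlations were -0.175 to -0.054 between untreated genotypes and -0.117 to -0.010 between genotypes under DSS. No sample correlated best with its own number in those comparisons of genotypes, so no pairing was seen there. The replicate block gave 695, 409, 345, 290 and 186 genes and changed no member call. Its values were, for example, 0.49 for Muc13 under DSS in WT and 0.61 for Muc1 under DSS in KO. Muc20 gave no value under the filter of 10 counts in every sample. Of the members, Muc20 (0 to 12 counts) was the one at the floor, and Muc1 had 54 to 109 counts in 9 of 12 samples.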
